A study of Mus musculus with 8 samples.

Results

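The keratin genes (Krt) and the genes of the keratin-associated proteins (Krtap) were examined in maps of CTCF and cohesin binding in mouse embryonic stem cells. Members were the protein-coding autosomal genes of the RefSeq table of GRCm38 (mm10) whose symbol is Krt with a number or begins with Krtap. There were 109 of them among 20661 autosomal protein-coding genes: 28 type I keratins, 25 type II keratins and 56 Krtap genes. Chromatin immunoprecipitation and sequencing (ChIP-seq) libraries came from 2 lines grown without feeders in serum and LIF. WT was the unmodified JM8.N4 embryonic stem cell line. C59 was a clone of it, homozygous for a FLAG-Halo tag on CTCF and an SNAPf-V5 tag on the cohesin subunit Rad21, so what is particular to this single clone cannot be told apart from what the tags do. Of 8 libraries (input, control IgG, CTCF and the cohesin subunit Smc3 in each line) the 4 with a peak list were used. Where values of all of them are given without names, they stand in a fixed order: CTCF in WT, CTCF in C59, Smc3 in WT, Smc3 in C59. With 1 library for each line and protein there is no replicate, and no test between lines was made. All intervals below are exact 95% intervals and cover counting error only.

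Keratins are the intermediate filament proteins of epithelia. An acidic type I chain pairs with a basic type II chain: Krt18 with Krt8 in simple epithelia, Krt14 with Krt5 in the basal layer of the epidermis, Krt10 with Krt1 in the layers above it. Other keratins serve the inner root sheath, the hair shaft and the nail, and Krtap proteins cross-link the keratin filaments of hair. Type I and type II genes lie in separate dense clusters of paralogs, except that the type I gene Krt18 sits beside Krt8 in the type II cluster. CTCF, which reads a long DNA motif through its zinc fingers, halts cohesin, the ring complex that extrudes chromatin loops, so that sites with both proteins often anchor loops. Embryonic stem cells are not keratinocytes, and the peak lists give occupancy and not expression.

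Among members with a promoter window, the only one with a CTCF summit in it was Krt8, a simple-epithelial type II keratin. The window runs from 250 bases before to 50 after the annotated start, and 87 of the 109 members matched one by symbol. Those without a window include Krt222, Krt19, Krt16, Krt87, Krt88, Krt81 and Krt86. Each of these had a WT CTCF summit within 1 kb of an annotated end, and whether that end is the start was not read. The Krt8 window is shown because it carries a peak in 3 of the 4 lists, and that of its partner Krt18 because it was the only member window with a match to the CTCF core motif (chosen after its values were seen). Both sequences are from RefSeq (GRCm38.p6), 5′ to 3′ in the direction of the gene. Capitals mark the 25 bases either side of the WT CTCF summit base in Krt8, and the motif match in Krt18.
Krt8, chr15:102004293-102004592, minus strand: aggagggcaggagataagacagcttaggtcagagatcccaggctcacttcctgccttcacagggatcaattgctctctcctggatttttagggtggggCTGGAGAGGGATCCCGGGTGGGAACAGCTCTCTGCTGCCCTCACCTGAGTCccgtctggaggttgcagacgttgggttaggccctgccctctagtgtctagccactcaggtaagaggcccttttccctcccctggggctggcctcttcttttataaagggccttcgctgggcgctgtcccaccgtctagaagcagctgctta
Krt18, chr15:102027966-102028265, plus strand: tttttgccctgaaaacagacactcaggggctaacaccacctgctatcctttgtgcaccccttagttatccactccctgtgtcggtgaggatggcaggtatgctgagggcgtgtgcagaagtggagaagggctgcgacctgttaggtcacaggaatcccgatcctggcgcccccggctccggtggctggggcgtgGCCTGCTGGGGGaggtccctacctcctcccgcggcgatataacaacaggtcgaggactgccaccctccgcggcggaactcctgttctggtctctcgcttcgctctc
In the Krt8 window the summits stood at base 124 (WT CTCF), base 117 (C59 CTCF) and base 171 (WT Smc3), counted from the window's 5′ end. The core motif searched on both strands was CC, then 3 free bases, AG, 2 free bases and GGC, and no match stood in the Krt8 window. The match in the Krt18 window began at base 195 on the strand opposite to the gene, and no summit of any list fell there. Among all 20084 autosomal protein-coding promoter windows 10.1% held this motif, and among the 1819 with a WT CTCF summit 32.6% did.

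Peaks at the ends of members were few. A gene was counted when a peak summit lay within 1 kb of either annotated end. WT CTCF marked 12 of 109 members (11.0%, interval 5.82 to 18.4%), where 39.7% of all autosomal protein-coding genes were marked. C59 CTCF marked 13 members (11.9%) against 34.1% of all genes. WT Smc3 marked 7 (6.42%) against 21.8%, and C59 Smc3 marked 2 (1.83%) against 11.8%. Members are short, with a median of 1652 bp, and genes shorter than 3 kb gave lower backgrounds of 21.6%, 18.6%, 13.5% and 9.11% in the same order. Where no peak is listed, binding may still have occurred below the authors' threshold.

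Keratins and Krtap genes gave different counts. At the ends of the 28 type I keratins, 5 were marked by WT CTCF (17.9%, 6.06 to 36.9%) and 5 by C59 CTCF, and of the 25 type II keratins also 5 (20.0%, 6.83 to 40.7%) in each line. Only 2 of 56 Krtap genes had a WT CTCF summit at an end (3.57%, 0.435 to 12.3%), and 3 in C59. The Krtap genes are the shortest, with a median of 833 bp, so their share is best read against the 21.6% of short genes. For keratins, whose median lengths were 6350 bp (type I) and 8268 bp (type II), the intervals include the share of short genes in both lines, and that of all genes too except for type I in WT. Over the 53 keratins together the share was 18.9% in each line (9.44 to 32.0%), an interval below the 39.7% and 34.1% of all genes. The share at ends was not computed for genes of 3 to 20 kb, which are closer to keratins in length.

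Inside genes the order of the groups by share of CTCF was the same. A WT CTCF summit lay between the annotated ends of 23 of 109 members (21.1%), against 64.3% of all genes, 55.1% of genes of 3 to 20 kb and 12.7% of shorter ones. All 23 were keratins: 14 of 25 type II (56.0%, 34.9 to 75.6%) and 9 of 28 type I (32.1%, 15.9 to 52.4%). C59 CTCF lay inside 22 members (20.2%, background 60.3%, and 49.7% and 10.5% in those length classes), and WT Smc3 inside 8 (7.34%, background 46.3%, and 32.9% and 6.76% by length), 7 of them type II. C59 Smc3 lay inside 1 member (0.917%, background 31.4%, and 18.9% and 3.61% by length). No peak of any list stood in or at the ends of 81 members: 53 of 56 Krtap genes, 18 of 28 type I and 10 of 25 type II keratins. The matching share of all genes was not computed, so this count has no background here.

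**Figure D1:**
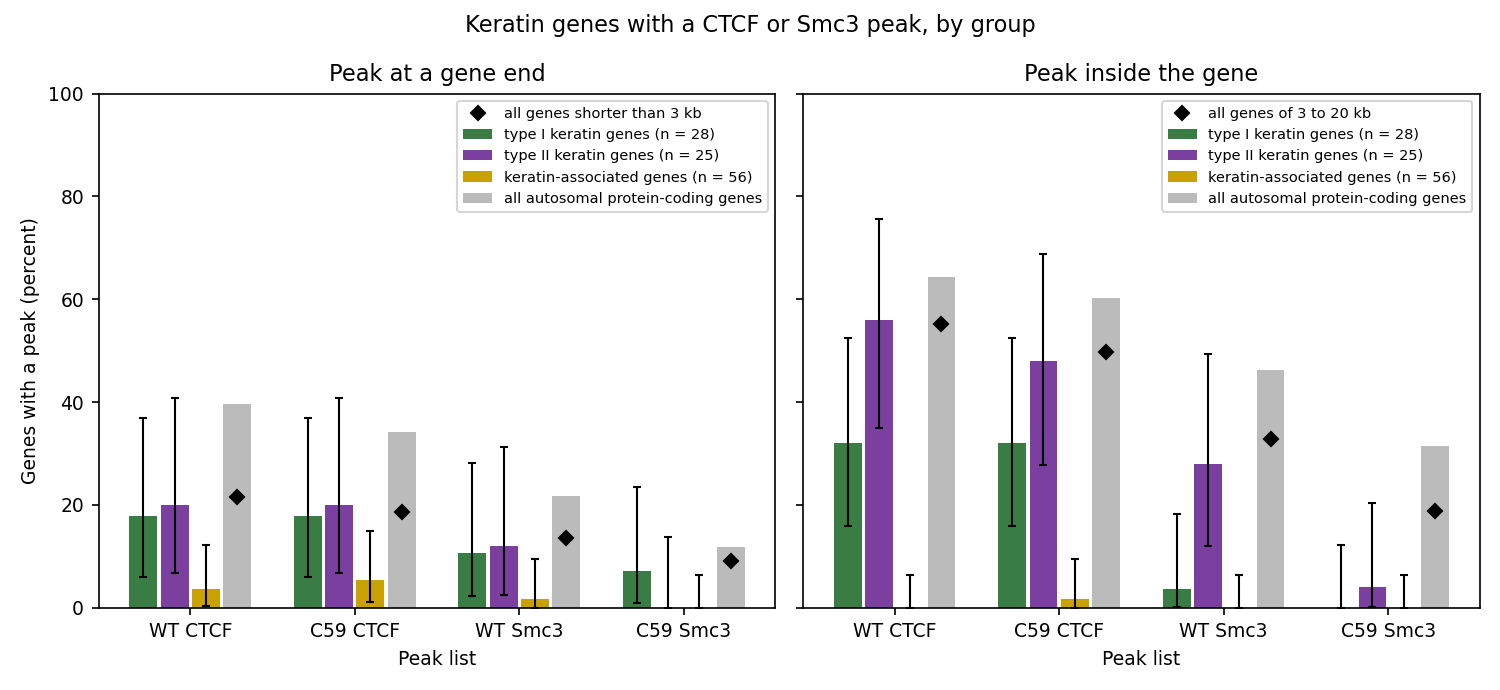
Percent of genes with a peak summit within 1 kb of an annotated end (left) and between the ends (right) in each of the 4 lists. Coloured bars are the 3 groups of members with exact 95% intervals, grey bars all 20661 autosomal protein-coding genes, and diamonds all genes of the stated length. Krtap bars lie lowest, and 56.0% of type II keratins held a WT CTCF summit, near the 55.1% of genes of 3 to 20 kb.

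The best-known keratins were taken first. A fold is the authors' ratio of pileup to local background and ranks peaks within a list only, since the lists were scaled differently. The median autosomal CTCF peak had a fold of 9.50 in WT and 11.2 in C59, and the median Smc3 peak 5.81 and 5.68. Krt8 (chr15:101996711-102004342), whose start peak is described above, had folds of 17.6 in WT CTCF, 15.0 in C59 CTCF and 4.63 in WT Smc3, with no C59 Smc3 peak. Krt18 (chr15:102028216-102032026), its type I partner, had none in any list in or within 1 kb of the gene. The genes point away from each other across 23.9 kb, and a further site between them had folds of 27.7 and 31.0 for CTCF in WT and C59 and 6.41 for Smc3 in WT.

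Of the basal epidermal pair, Krt5 (chr15:101707069-101712905) held a CTCF peak inside the gene, with folds of 16.5 in WT and 17.9 in C59. Krt14 (chr11:100203162-100207510) also held a CTCF peak inside, 940 bp from its end, with the lower folds of 6.46 and 7.54. Neither gene had an Smc3 peak in either line. The suprabasal pair, Krt1 (chr15:101845426-101850786) and Krt10 (chr11:99385254-99397449), had no peak in any list. Of the other simple-epithelial keratins, Krt19 (chr11:100140810-100145926) had folds at an end of 8.72 and 7.30 for CTCF in WT and C59 and 3.45 for Smc3 in WT, and a weak C59 CTCF peak of 3.03 at the other end. Krt7 (chr15:101412403-101427806), a keratin of glands and ducts, held a site inside the gene with folds of 9.75, 12.1 and 3.27 in those lists, and a WT CTCF peak of 4.94 without a C59 counterpart. Of the pairs named here, Krt5 and Krt14 thus both had CTCF, Krt1 and Krt10 both had none, and Krt8 and Krt18 differed. Other keratin pairs were not compared.

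Among type I keratins the strongest peak at an end was that of Krt28 (chr11:99365007-99374903), an inner root sheath keratin. The site just beyond its annotated end had CTCF folds of 36.7 in WT and 38.8 in C59, and Smc3 folds of 8.38 and 7.51. Krt28 also held CTCF sites inside, with folds of 16.1 and 27.1 in WT and 16.1 and 31.6 in C59, neither with Smc3. Krt222 (chr11:99232761-99244147), the first member of its cluster, carried an end site of 14.4, 18.6, 6.84 and 4.41 in the same order of lists. Krt28 and Krt222 were the only members with an Smc3 peak at an end in both lines. Krt16 (chr11:100246091-100248902), induced in wounded epidermis, had CTCF folds of 7.03 and 7.66 at an end, again with no Smc3.

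Among type II keratins the 3 strongest end peaks in both lines were those of Krt86, Krt81 and Krt88, close neighbours in the cluster. Krt86 (chr15:101473478-101479983), of the hair cortex, had folds of 30.7 and 33.3 for CTCF in WT and C59 and 6.41 for Smc3 in WT. Krt81 (chr15:101459061-101463765), also of the hair cortex, had CTCF folds of 22.8 and 16.4. Krt88 (chr15:101447724-101453925) had 21.8, 43.5 and 3.59 in those lists, and Krt87 (chr15:101431490-101438804) had CTCF folds of 16.3 and 14.3. Together with Krt8 these 5 were all the type II genes with CTCF at an end, the same 5 in both lines. The Smc3 peaks at ends of Krt86, Krt88 and Krt8 were present in WT alone, as were those of Krt19 and Krtap4-6. No member had Smc3 at an end without CTCF there in the same line.

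By function, the lists of keratins gave these counts of genes with a WT CTCF summit inside, to be read against 55.1% of genes of 3 to 20 kb and 64.3% of all genes. Of 7 inner root sheath keratins 4 had one, of 6 simple-epithelial keratins 3, and of 8 epidermal keratins 3. Of 15 hair keratins 4 had one, of 4 wound and nail-bed keratins 3, and of 5 mucosal and corneal keratins 2. C59 CTCF gave the same counts except for hair (3) and the wound and nail-bed list (2), against 49.7% of genes of 3 to 20 kb and 60.3% of all genes. Smc3 was inside 1 inner root sheath, 2 simple-epithelial, 2 hair and 1 mucosal keratin in WT, and inside 1 mucosal keratin in C59. The Smc3 background for genes of 3 to 20 kb was 32.9% in WT and 18.9% in C59. That mucosal keratin was Krt78 in both lines, and it is also 1 of the 2 mucosal and corneal keratins with CTCF inside. As described below, the peaks of Krt78 are not in the gene by the promoter table. With so few genes per list the intervals are wide (18.4 to 90.1% for the inner root sheath, 7.79 to 55.1% for hair).

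In keratins with a known strand, outside Krt78, CTCF summits inside the gene lay mostly towards its annotated end. Of the 23 keratins with a WT CTCF summit inside, 15 had a strand. The others (Krt16, Krt17, Krt19, Krt6a, Krt81, Krt86, Krt87 and Krt88) could not be placed and are not counted. The promoter table gave a strand for 36 keratins, and without Krt78, described below and left out after its values were seen, 14 of 35 held 16 WT CTCF summits. Of these summits 15 (93.8%, 69.8 to 99.8%) lay nearer to the annotated end than to the start. In Krt78 it was 1 of 6, and with Krt78 the count was 16 of 22 (72.7%, 49.8 to 89.3%) in WT and 16 of 20 (80.0%, 56.3 to 94.3%) in C59. Over all autosomal genes of 3 to 20 kb with a strand the share was 44.1% of 6250 summits, and over genes of 5 to 16 kb it was 44.6%. The exception was the WT-only peak of Krt7, and in C59, again without Krt78, all 15 summits lay nearer to the end (100%, 78.2 to 100%), against 44.3% of those in genes of 3 to 20 kb.

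Most fell in a narrow belt. In WT 11 of the 16 summits (68.8%, 41.3 to 89.0%) lay 1 to 3 kb before the annotated end, against 18.6% in genes of 3 to 20 kb. The belt was occupied in both families. Type I members with a WT CTCF summit there were Krt42 (1591 bp from the end), Krt28 (2023 bp), Krt25 (2379 bp), Krt20 (2491 bp) and Krt26 (2969 bp), which include 3 inner root sheath keratins and the intestinal keratin Krt20. Type II members were Krt79 (1326 bp), Krt82 of the hair cuticle (1508 bp), Krt5 (1838 bp), Krt72 of the inner root sheath (2018 bp), Krt77 (2143 bp) and Krt76 of the oral mucosa (2955 bp). Each of these 11 genes had a C59 CTCF summit in the belt too, in Krt20 within a base of the WT position (2492 bp). Paralogs share sequence, so these genes are not independent of each other, and exon positions were not used here. In 12 other intermediate filament genes with a strand, from the list that holds Vim and Des, 19 of 38 WT CTCF summits (50.0%, 33.4 to 66.6%) lay nearer to the end. This pattern and the limits of the belt were chosen after the positions were seen.

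**Figure D2:**
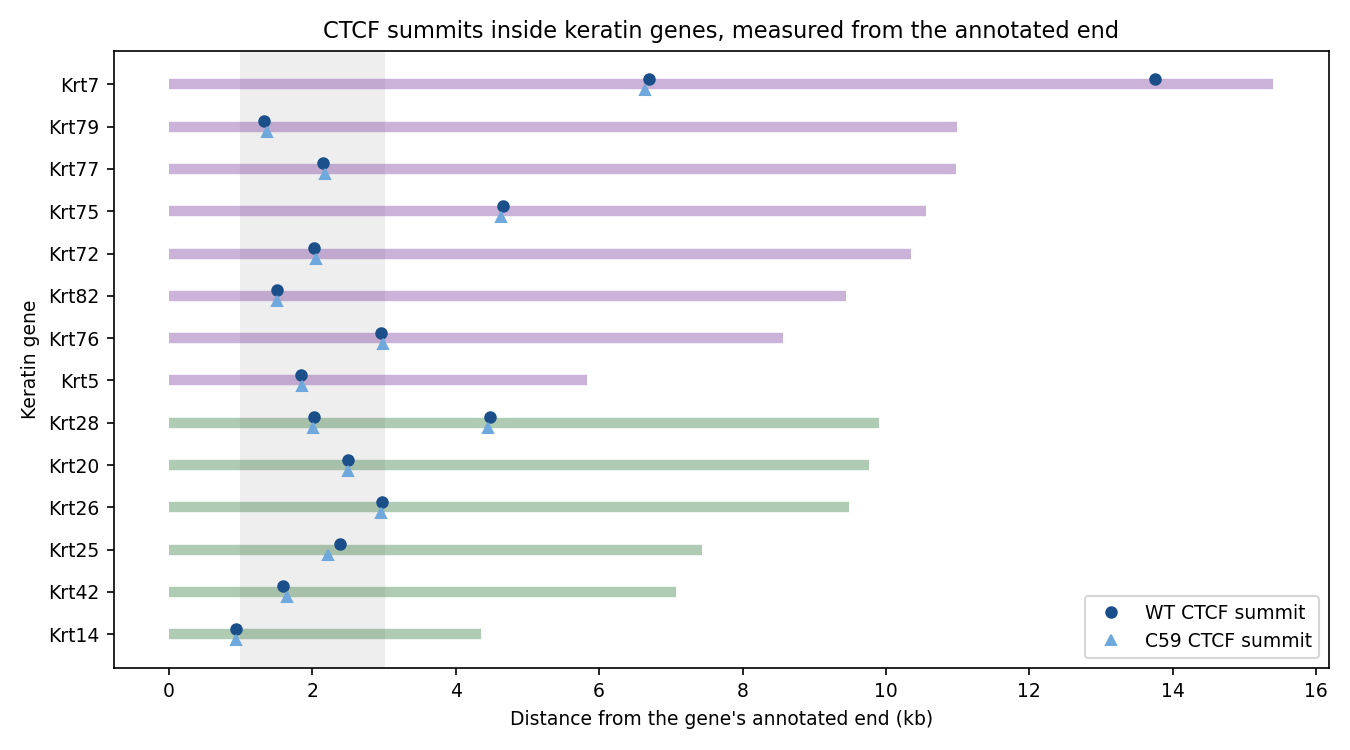
CTCF summits inside the 14 keratin genes that had a strand and a summit, without Krt78. The x axis is distance in kb from the annotated end of the gene (0). Pale bars span each gene (green type I, violet type II), circles are WT and triangles C59 summits, and the grey band marks 1 to 3 kb, where 11 of 16 WT and 11 of 15 C59 summits lie.

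Overlap with Smc3 was counted separately for CTCF peaks inside keratin genes and between the genes of the same clusters. In WT, 7 of 24 CTCF peaks inside members other than Krt78 overlapped an Smc3 peak (29.2%, 12.6 to 51.1%). With Krt78, where 4 of 6 did, the count was 11 of 30 (36.7%, 19.9 to 56.1%). Between genes of the clusters 45 of 79 did (57.0%, 45.3 to 68.1%). Over all autosomal CTCF peaks the share was 40.6% inside genes and 48.8% outside them, the latter within the interval between genes. In C59 the count inside members other than Krt78 was 0 of 23 (0 to 14.8%), and with Krt78 4 of 28 (14.3%, 4.03 to 32.7%). Between genes it was 34 of 74 (45.9%, 34.3 to 57.9%). The autosomal shares in C59 were 26.0% inside genes and 35.1% outside them, the latter again within the interval between genes.

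Peak strength moves with that share, and was comparable in part. Median CTCF folds inside members and between genes were 12.8 and 16.3 in WT, and 12.1 and 14.6 in C59. Between the median and the 75th percentile of fold of the WT list, 2 of 10 CTCF peaks inside members had Smc3 (20.0%, 2.52 to 55.6%), against 58.2% of autosomal peaks inside genes. At or above the 75th percentile it was 4 of 6 (66.7%, 22.3 to 95.7%) against 93.2%. In C59 the same bins gave 0 of 7 (0 to 41.0%) against 31.3%, and 0 of 5 (0 to 52.2%) against 74.8%. In the upper bin between genes of the clusters 26 of 29 WT (89.7%) and 20 of 22 C59 CTCF peaks (90.9%) had Smc3. Of autosomal peaks outside genes in that bin, 95.5% in WT and 83.6% in C59 did. These counts inside members leave out Krt78 and are small, and whether the shares differ beyond counting error within a bin was not tested.

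Krt78 stood apart from the other keratins. Its annotated span, chr15:101946001-101996624, covers 50.6 kb, the longest of all members, and its name was taken up after its values were seen. The promoter table, however, puts its start at the window chr15:101954238-101954537, 42.3 kb short of the upper end of that span. All the peaks counted inside Krt78 lay upstream of that start, so by the promoter table they are not in the gene. For 4 of 87 members the start in the 2 tables differed by over 1 kb, and only in Krt78 did peaks lie between. It held 6 CTCF peaks in WT and 5 in C59, and 6 Smc3 peaks in WT and 4 in C59. The strongest Smc3 site in the span had folds of 22.1, 40.0, 20.5 and 24.1 in the 4 lists. A second strong site had 35.8, 56.9, 11.2 and 13.1. No other member had a C59 Smc3 peak inside its span. Without it, 22 members would hold WT CTCF, 7 WT Smc3 and none C59 Smc3. The annotated end of Krt8 lies 0.0870 kb beyond Krt78.

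Krtap genes had almost no peaks of their own. Krtap5-1 (chr7:142296377-142297134), which codes for an ultra-high-sulfur hair protein, had CTCF folds of 9.12 in WT and 7.80 in C59 at an end, and no Smc3. Krtap4-6 (chr11:99665043-99665960), also ultra-high-sulfur, had 10.8 and 6.42 for CTCF in WT and C59 and 4.26 for Smc3 in WT. Krtap16-1 (chr11:99984703-99986593) had a C59 CTCF peak of 3.05 and nothing in WT. These 3 genes were the only Krtap genes with a peak in or at the gene in any list. The distance from a Krtap gene to the nearest WT CTCF summit had a median of 15.9 kb over 56 genes, against 11.4 kb over all genes shorter than 3 kb, and for C59 CTCF 16.7 against 14.9 kb. For Smc3 the order was the opposite, with 19.2 against 25.1 kb in WT and 23.4 against 41.3 kb in C59. For type I and type II keratins the WT CTCF medians were 4.62 and 0 kb, against 0 kb for genes of 3 to 20 kb.

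The 109 members form 5 clusters, joined where neighbours lie within 200 kb, and Krtap28-13 stands alone on chromosome 1. Krtap28-13 (chr1:83060930-83061921) had no peak within 1 kb, and the nearest site, 3.07 kb beyond it, had folds of 15.0, 34.2, 5.09 and 3.51 in the 4 lists. The widest joined gap was 197 kb, between Krtap20-2 and Krtap21-1, and no members on the same chromosome were left unjoined. Over the 5 clusters, 2928 kb in all, WT CTCF peaks stood at 40.0 per Mb (33.0 to 47.9), the autosomal density being 40.2 per Mb. C59 CTCF stood at 37.6 (30.9 to 45.3) against 33.5, and WT Smc3 at 22.9 (17.7 to 29.1) against 19.3. C59 Smc3 stood at 15.0 (10.9 to 20.2) against 10.6 per Mb, an interval just above the autosomal density. With the full lists the clusters as a whole were thus about as dense in CTCF as the autosomes, but unevenly so. Their median CTCF folds were higher, 15.0 in WT and 15.3 in C59, against 9.50 and 11.2 over the autosomes. With the 25400 peaks of lowest p-value in each list, the clusters held 15.4 WT CTCF peaks per Mb (11.2 to 20.6). The C59 CTCF density was then 14.3 (10.3 to 19.4). At that list length the autosomal density is 10.6 per Mb, below the WT interval and inside the C59 one.

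The type II cluster (chr15:101348315-102032026, 684 kb, 26 members from Krt80 to Krt18) held 40 CTCF peaks in WT and 34 in C59, and 22 Smc3 peaks in WT and 10 in C59. Its WT CTCF density was 58.5 per Mb (41.8 to 79.7). The longest stretch without a WT CTCF summit was 64.0 kb, around Krt71. Of its WT CTCF peaks 34 (85.0%) overlapped a C59 CTCF peak, near the 79.9% over all autosomes. Of its 22 WT Smc3 peaks 10 (45.5%, 24.4 to 67.8%) overlapped a C59 Smc3 peak, with 53.3% over all autosomes inside that interval.

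**Figure D3:**
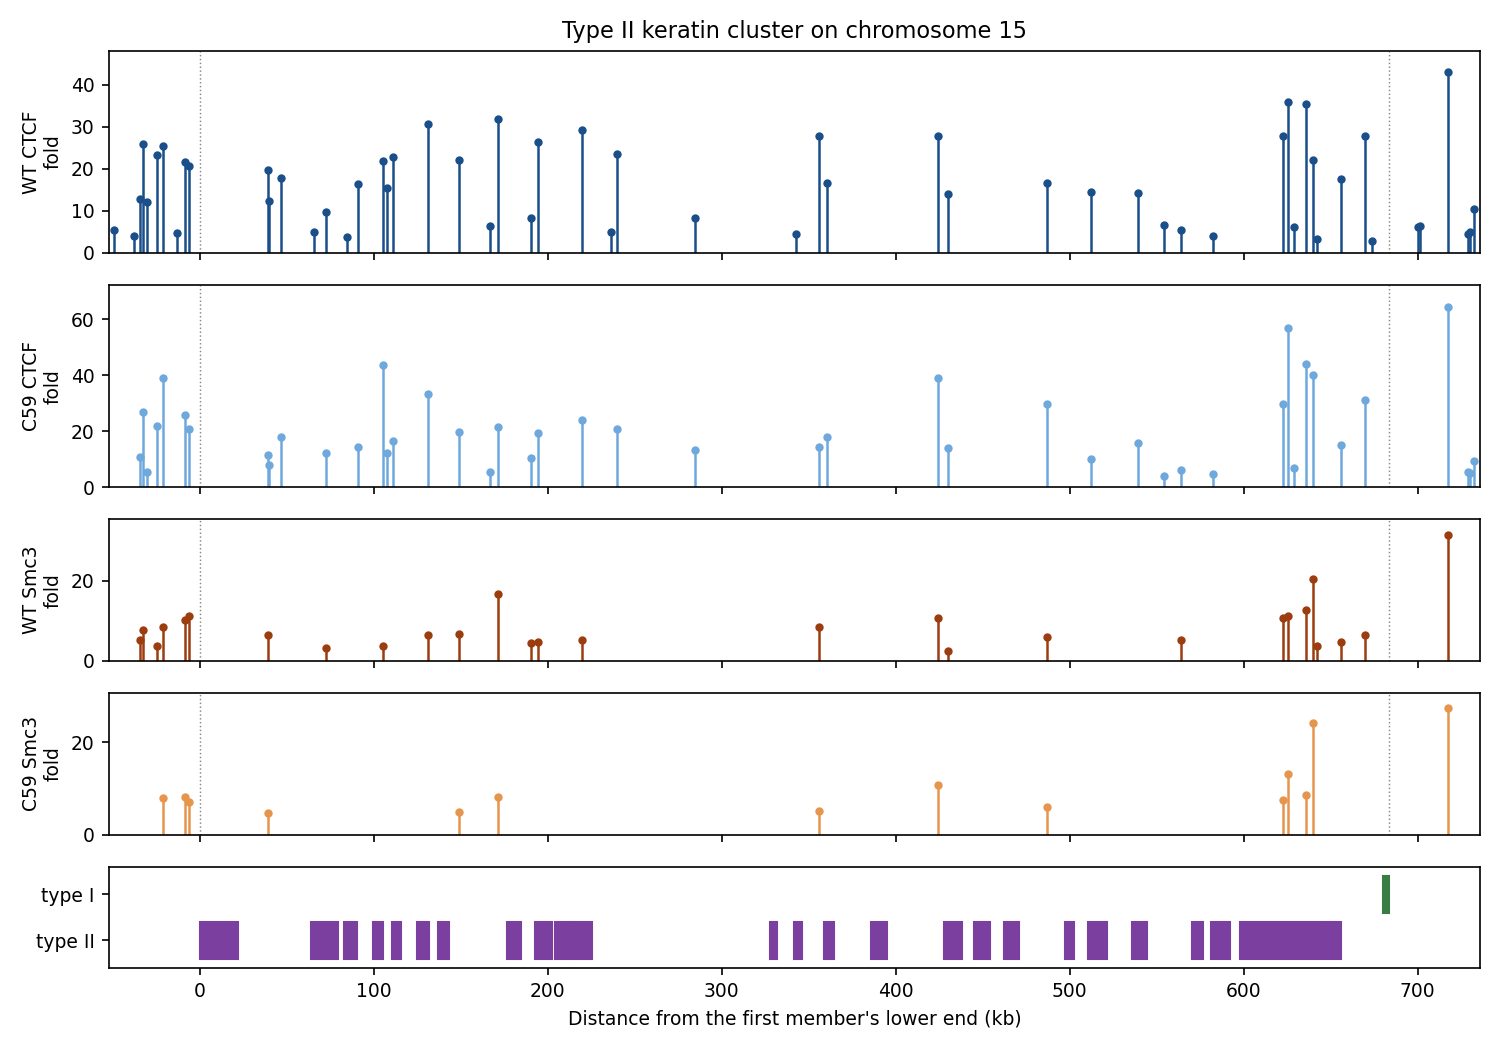
Peaks across the type II cluster on chromosome 15, as distance in kb from the lower end of Krt80, with 50 kb on either side. Each line and dot is a site with its fold in the named list, boxes below are members, and dotted lines mark the cluster's ends. CTCF sites recur along the whole cluster, the group near the right end lies in the annotated span of Krt78, and the tallest site lies 33.8 kb beyond Krt18.

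The type I cluster (chr11:99232761-100269951, 1037 kb, 50 members from Krt222 to Krt42) holds keratin genes on both sides of a block of Krtap genes. The block from Krt222 to Krt40, 310 kb with 12 members, had 74.1 WT CTCF peaks per Mb (47.0 to 111). The Krtap block from Krtap3-3 to Krtap17-1, 444 kb with 23 members, had 13.5 per Mb (4.96 to 29.4). The block from Krt33a to Krt42, 259 kb with 15 members, had 50.2 per Mb (26.8 to 85.9). Both keratin blocks had more peaks per Mb than the Krtap block between them, and the intervals of the first block and the Krtap block do not overlap. Smc3 gave the same order, with 35.4, 11.3 and 30.9 peaks per Mb in WT and 35.4, 6.76 and 15.5 in C59. These rest on 11, 5 and 8 peaks in WT (17.7 to 63.4, 3.66 to 26.3 and 13.3 to 60.9 per Mb). In C59 they rest on 11, 3 and 4 (17.7 to 63.4, 1.39 to 19.8 and 4.21 to 39.6), and the Smc3 intervals overlap in each line.

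**Figure D4:**
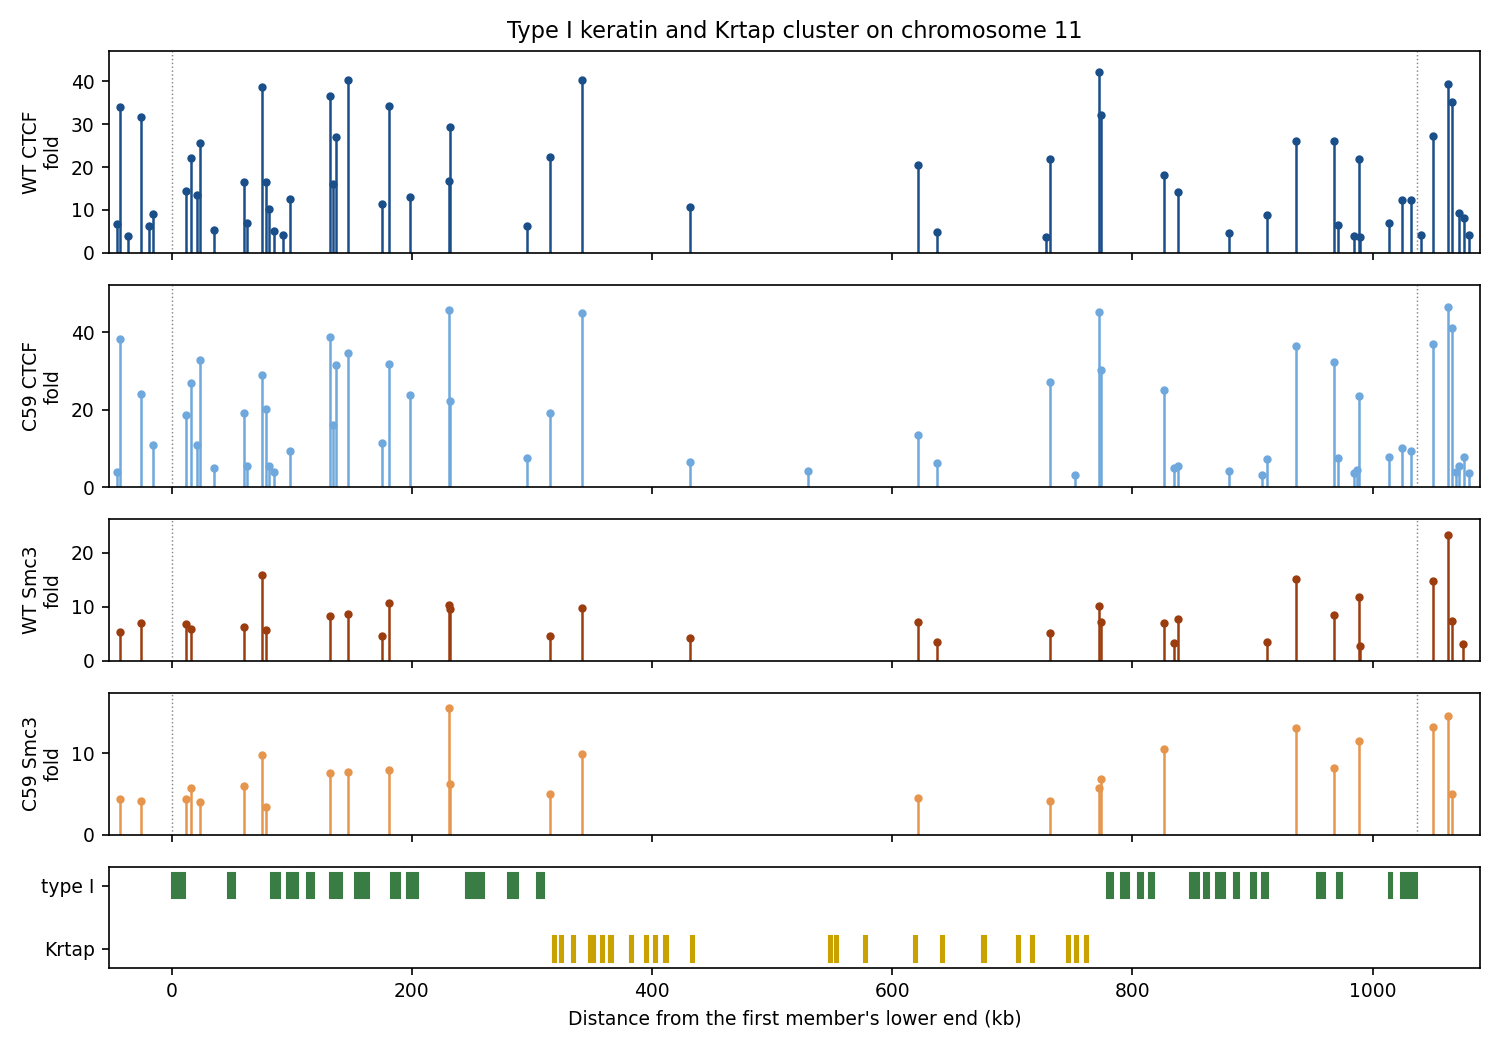
Peaks across the type I cluster on chromosome 11, as distance in kb from the lower end of Krt222, with 50 kb on either side. Each line and dot is a site with its fold in the named list, boxes below are type I keratin and Krtap genes, and dotted lines mark the cluster's ends. The Krtap block in the middle holds 6 WT CTCF peaks over 444 kb, against 23 over the 310 kb of the keratin block to its left.

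A fact of the libraries touches chromosome 11. The background implied by pileup and fold there was 1.19, 1.45, 1.25 and 1.47 times that of the other autosomes in the 4 lists, against 0.890 to 1.000 on chromosomes 7, 10, 15 and 16. Over the type I cluster CTCF had 48 peaks in C59 and 45 in WT, and Smc3 had 21 and 27. Over the type II cluster CTCF had 34 and 40. The part of the background in these counts was not tested. The background for ends over the genes of chromosome 11 was 47.0%, 42.7%, 26.8% and 18.5% in the 4 lists. The blocks of the type I cluster are compared within the same chromosome and list. The whole lists held 96324, 80258, 46349 and 25400 autosomal peaks in the same order.

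The chromosome 16 cluster (chr16:88610709-89571183, 960 kb) holds 24 Krtap genes from Krtap24-1 to Krtap11-1 and was the poorest in peaks. It had 16 WT CTCF peaks, or 16.7 per Mb (9.52 to 27.1), and 13 in C59. Smc3 had 7 peaks there in WT and 6 in C59. None lay in or at a member. Of 2388 windows of 1 Mb over the autosomes, the lowest 25% held 13 or fewer WT CTCF peaks, so a density of this kind is not rare. Its members cover 16.4 kb of the 960 kb.

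Within it, a stretch of 458 kb between WT CTCF summits (chr16:89053348-89510998) held no WT CTCF peak. It contains 6 members from Krtap6-3 to Krtap7-1, of families that code for glycine- and tyrosine-rich hair proteins among others, and 26 other genes. Of 96305 intervals between neighbouring WT CTCF summits on autosomes, 276 (0.287%) were as long, and the median was 8.83 kb. In C59 the stretch was 573 kb with 10 members, a length that 0.253% of its intervals reached, because the weak WT site at its lower end (fold 3.80) had no C59 peak. In both Smc3 lists it was 579 kb, reached by 0.885% of WT and 2.24% of C59 intervals. The Krtap block of chromosome 11 had a similar but shorter stretch of 190 kb in WT with 5 members from Krtap4-6 to Krtap4-16 (1.84% of intervals as long). A C59 CTCF peak of fold 4.17 divided that stretch in C59, where the longest was 98.3 kb.

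**Figure D5:**
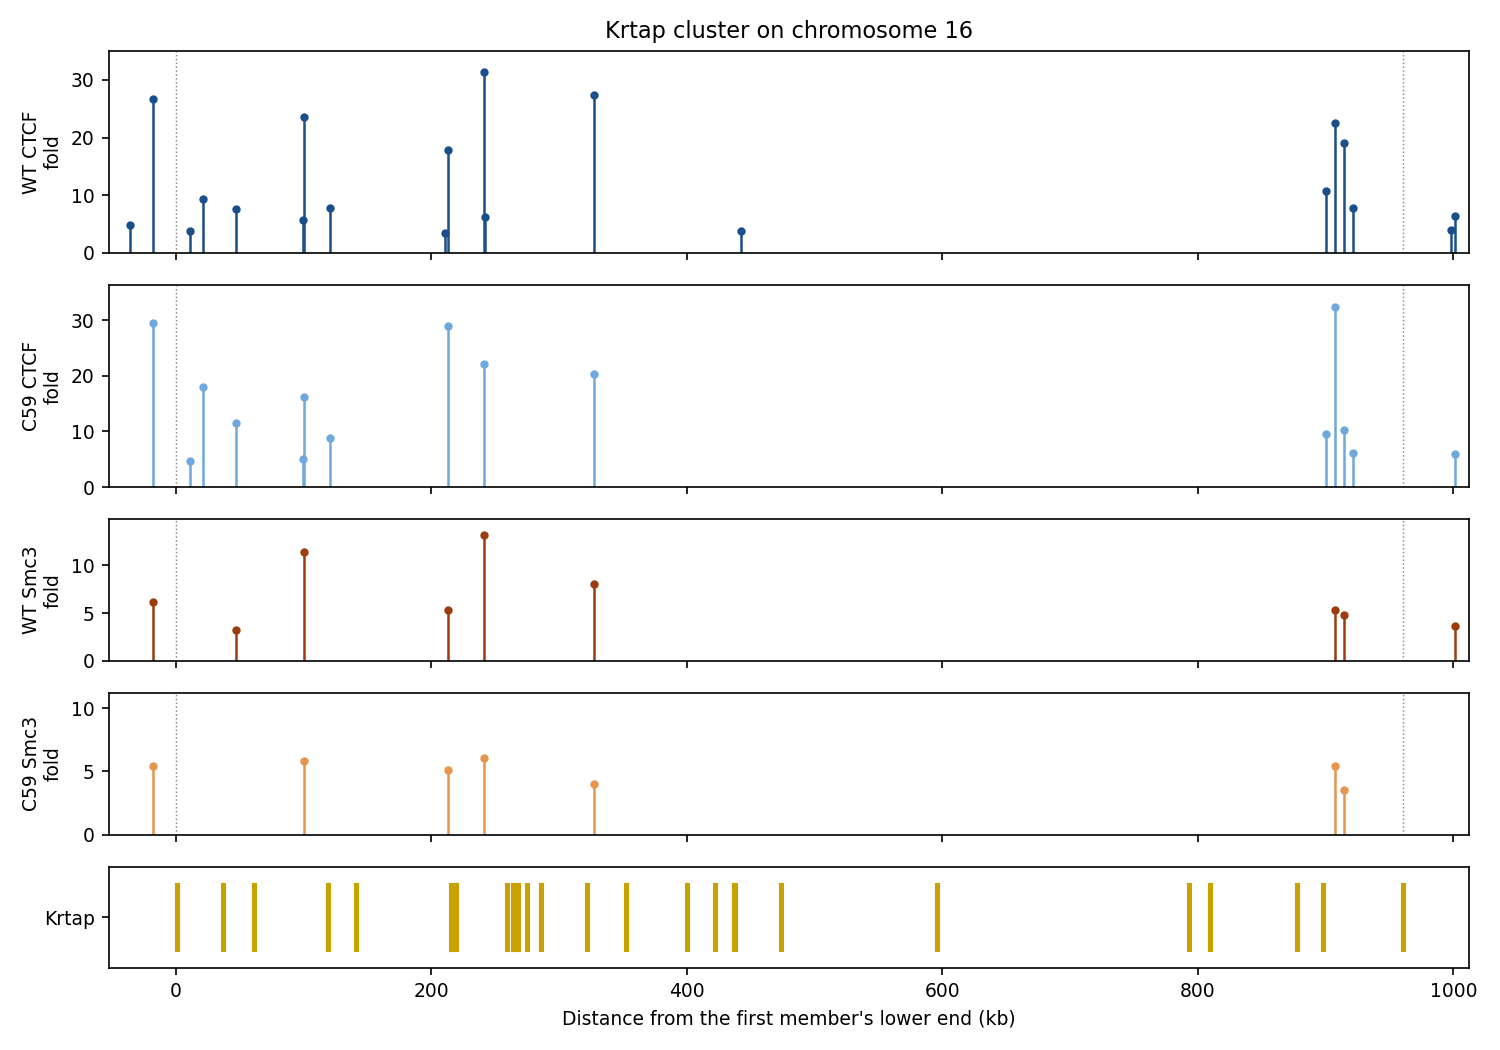
Peaks across the Krtap cluster on chromosome 16, as distance in kb from the lower end of Krtap24-1, with 50 kb on either side. Each line and dot is a site with its fold in the named list, boxes below are Krtap genes, and dotted lines mark the cluster's ends. No list has a peak over at least 458 kb in the right part of the map, where 6 members lie.

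The remaining clusters are small and held peaks mostly between members. The Krtap5 cluster (chr7:142174532-142304503, 130 kb, 5 members) had 9 and 8 CTCF peaks and 5 and 2 Smc3 peaks in WT and C59. Its strongest CTCF site in both lines had folds of 37.2, 35.8, 5.72 and 3.94 in the 4 lists. The Krtap10 and Krtap12 cluster (chr10:77720586-77837251, 117 kb, 3 members) lies within the gene Tspear, and all 7 of its WT CTCF peaks stood in that gene and none in a member. At its strongest WT CTCF site the folds were 34.8, 31.4, 5.53 and 3.38, and other sites were stronger in the other lists.

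Sites were then followed across all 4 lists by merging overlapping peaks. The 5 clusters held 123 sites, of which 42 were in all 4 lists and 41 in both CTCF lists with no Smc3. A further 19 had CTCF in both lines and Smc3 in WT alone, 13 were in WT CTCF alone and 4 in C59 CTCF alone. The type I cluster had 20 of its 50 sites in all 4 lists, the type II cluster 10 of 41 and the chromosome 16 cluster 6 of 16. Shares of these patterns over all autosomal sites were not computed. Of 117 WT CTCF peaks in the clusters, 62 overlapped WT Smc3 (53.0%, 43.5 to 62.3%), the autosomal share being 44.4%. In C59 it was 43 of 110 (39.1%, 29.9 to 48.9%), with 30.4% over the autosomes.

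The WT peaks of members were looked for in C59. In or at members 32 of 36 WT CTCF peaks overlapped a C59 CTCF peak (88.9%, 73.9 to 96.9%), as did 79.9% of all autosomal ones. In the other direction 32 of 34 C59 CTCF peaks overlapped a WT one (94.1%), the autosomal share being 97.1%. Of 17 WT Smc3 peaks in or at members 6 overlapped a C59 Smc3 peak (35.3%, 14.2 to 61.7%), the autosomal share being 53.3%. Lists of equal length were made of the 25400 peaks of lowest p-value in each list, with fold used for ties. With them the shares were 9 of 10 for CTCF (90.0%, 55.5 to 99.7%) and 6 of 7 for Smc3 (85.7%, 42.1 to 99.6%), so the Smc3 share depends on list length. Autosomal shares with equal lists were not computed. Of the 17 WT Smc3 peaks in or at members, 16 overlapped WT CTCF (94.1%), near the 95.1% over the autosomes. The CTCF peaks not found were the weak ones: their median fold was 4.08, and 14.4 for those found. For Smc3 the medians were 3.74 and 11.0. The C59 Smc3 list is the shortest, so a WT peak not found in it may have been below its threshold.

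Sites beyond the clusters' ends were counted in border windows. A border window is the 50 kb outward from the outermost member, and the 10 windows held 50 and 36 CTCF peaks and 24 and 16 Smc3 peaks in WT and C59. That is 100 WT CTCF peaks per Mb (74.2 to 132), against 40.0 within the clusters and 40.2 over the autosomes. In C59 it was 72.0 (50.4 to 99.7), against 37.6 and 33.5. A window of 20 kb held 15 peaks in WT over 0.200 Mb and 8 in C59, the latter 40.0 per Mb (17.3 to 78.8). Joining neighbours within 100 kb gave 62.5 and 50.0, so the excess over these means depends on the window and on how clusters are joined. Autosomal windows of 1 Mb held 57.0 WT CTCF peaks at the 75th percentile and 112 at the 95th, and 47.2 and 94.0 in C59. Densities like those of the borders are thus not rare, though these windows are longer than a border window. With equal list lengths border and cluster densities were 32.0 and 15.4 in WT, and 30.0 and 14.3 in C59. All 10 borders had a CTCF peak in WT and 9 in C59, and 9 had an Smc3 peak in WT and 8 in C59. The windows reach into neighbouring genes, whose own peaks are counted.

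The strongest border site lay beyond Krt18, towards Eif4b, the gene of a translation initiation factor. It stood 33.8 kb out (WT CTCF peak chr15:102065383-102066619) with folds of 42.9, 64.4, 31.6 and 27.4 in the 4 lists. These folds were at the 98.8th percentile of the WT CTCF list and the 100.0th (rounded) of the other lists. At the opposite border of that cluster, between Krt80 and Smim41, the first WT CTCF site was 6.35 kb out with folds of 20.7, 20.8, 11.2 and 6.99, followed by 9 further WT CTCF peaks within the window. The strongest of these, 32.4 kb out, had 25.9, 27.0 and 7.84 and no C59 Smc3 peak. The type I cluster's border beyond Krt42, towards Eif1, had its strongest site 25.6 kb out with 39.4, 46.6, 23.4 and 14.5. Beyond Krt222, whose neighbour is Smarce1, a subunit gene of a chromatin remodelling complex, the strongest was 43.3 kb out with 34.1, 38.2, 5.39 and 4.40. Both large keratin clusters, and the Krtap5 cluster described next, had a site in all 4 lists on either side.

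The borders of the Krtap clusters followed. Beyond Krtap5-2, on the side of Gm4553, the strongest CTCF site was 4.46 kb out with 30.7, 30.1 and 6.91 and no C59 Smc3 peak. A weaker site in the same window had 15.9, 22.4, 9.39 and 6.86 in all 4 lists. Beyond Krtap5-4, on the side of Ifitm10, a site 29.9 kb out had 38.1, 49.3, 15.1 and 10.6. The chromosome 16 cluster had a site of 26.6, 29.5, 6.11 and 5.46 beyond Krtap24-1, 17.8 kb out towards the claudin gene Cldn8. Beyond Krtap11-1, where the next gene, Tiam1, is 216 kb away, the strongest had only 6.46, 5.93 and 3.68 and no C59 Smc3. The Krtap10 and Krtap12 cluster had 22.6, 22.3, 5.81 and 4.37 beyond Krtap10-10, on the side of Gm36176. Beyond Krtap12-1, next to Gm10142, the window held WT CTCF peaks of at most 5.70 and no peak of the other lists, the first C59 CTCF summit being 90.4 kb out. Such weak borders, where no list exceeded a fold of 6.46, were thus 2 of 10, both at Krtap clusters.

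Promoter windows of members were also searched for a TATA box and for base composition, which the choice of members did not use. The sequence TATAAA on the gene's strand stood in 42 of 51 Krtap windows (82.4%), 13 of 22 type I windows (59.1%) and 4 of 15 type II windows (26.7%), against 8.29% of all 20084 windows. Median GC content was 41.3%, 45.8% and 53.0% in these groups and 57.0% over all. The CTCF core motif was in 1 of 88 member windows (1.14%), and 1 of 88 held a WT CTCF summit, against 10.1% and 9.06% of all windows. Of the 51 Krtap windows 13 shared a run of 50 bases with another window, 1 of them over more than 50% of its length, and no keratin window did. Reads from such runs cannot be placed uniquely at the stated read length of 50, and the sources used here do not say how they were handled. Its part in the low counts at Krtap genes was not tested.

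Other intermediate filament genes and genes of desmosomes, linkers and the cornified envelope were compared from lists by name. Their backgrounds were 39.7% (WT CTCF) and 34.1% (C59 CTCF) of all genes and 21.6% and 18.6% of genes shorter than 3 kb. The lists differ in gene length, with medians of 10256 bp (other intermediate filament genes), 46738 bp (desmosome and linker) and 1690 bp (cornified envelope). Of 16 other intermediate filament genes, 11 had a WT CTCF summit at an end (68.8%, 41.3 to 89.0%) and 9 a C59 one. Of 12 genes of desmosomes and of the linkers that anchor keratin filaments, 7 had a WT CTCF and 7 a C59 CTCF summit at an end. Of 43 genes of the cornified envelope, a clustered epidermal family like the keratins, 2 had one in WT (4.65%, 0.568 to 15.8%) and 1 in C59. Keratins (10 of 53 in each line, 18.9%, 9.44 to 32.0%) lay between these lists. WT Smc3 marked the ends of 3, 4 and 1 genes of the lists and of 6 keratins, against 21.8% of all genes and 13.5% of genes shorter than 3 kb.

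The limit of 1 kb for a gene end was close for some keratins. Just inside were Krt19 (934 bp, WT CTCF fold 8.72) and Krt14 (940 bp, 6.46). Just outside were Krt6a (1106 bp, 4.37), Krt17 (1206 bp, 12.3) and Krt79 (1326 bp, 3.99), each counted as inside the gene.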

How the data were processed

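Per the labels' protocols, ChIP-seq reads were 50 bases from 1 end. Tools listed without roles in the submitters' processing notes are MACS2 2.1.0.20140616, Bowtie 0.12.8, deepTools 2.4.1, FastQC 0.10.1 and CASAVA, and the build is mm10. The control, threshold and handling of reads with several matches are not given in the sources used here. The labels' extraction protocol names a Rad21 antibody, and the antibody label of each cohesin library names Smc3, which was followed.

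Each deposited list gives peak position and length, summit, pileup signal, p-value and q-value (at most 0.0495) and fold (a ratio to local background), all the authors' values. Read depth is unknown. From them, with Python 3.11.15, scipy 1.17.1, pandas 2.3.3 and numpy 2.4.6, summits were assigned to genes of the RefSeq table, overlaps of at least 1 bp were counted, and exact Clopper-Pearson (shares) or Poisson (densities) intervals were computed. Autosomal density uses the span from the first to the last WT CTCF peak of each chromosome. Strand came from the promoter table, with 87 members matched. Krt74 and Krt85 of the lists were not matched as protein-coding genes. Scripts were tested on simulated data.

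Genes were named by rule: 8 well-known keratins, the strongest end peaks per group and protein in both lines or in 1 line, and cluster-end genes with their neighbours. Members and lists were chosen with earlier results of these data known. Alternatives covered windows, q-values, equal list lengths, overlap, joining distance, backgrounds and chromosome 11. Input and IgG libraries were not used here.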

Additional observations from a re-analysis of the deposited data

How the results depend on the processing

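Of 110 alternative values, 78 stayed within the interval of the reported value and 32 moved outside it. Windows: members with a CTCF summit at an end were 5.50% within 500 bp in WT, and 24.8% (WT) and 23.9% (C59) within 2500 bp. At annotated starts alone, over the 87 members with a strand, they were 1.15% in WT CTCF, 1.15% in C59 CTCF, 1.15% in WT Smc3 and 0% in C59 Smc3. Outside chromosome 11 the C59 Smc3 share at ends was also 0%. Equal list lengths: with the 25400 peaks of lowest p-value in each list, CTCF marked the ends of 2.75% of members in either line (WT 2.75%, C59 2.75%). CTCF then lay inside 5.50% (WT) and 5.50% (C59), and WT Smc3 inside 1.83%. Cluster densities were then 15.4 (WT CTCF), 14.3 (C59 CTCF) and 14.7 (WT Smc3) per Mb, and border densities 32.0 (WT CTCF) and 30.0 (C59 CTCF) per Mb, still above those of the clusters. The share of WT Smc3 peaks of members found in C59 became 85.7% (6 of 7), and the share of cluster WT CTCF peaks with Smc3 77.8%. That last share was 42.7% with an overlap of at least 50% of both peaks. Borders: joining neighbours within 100 kb lowered border densities to 62.5 (WT CTCF) and 50.0 (C59 CTCF) per Mb, and a 20-kb window gave 40.0 for C59 CTCF. Backgrounds: shares of genes with a summit at an end were 21.6%, 18.6%, 13.5% and 9.11% for genes shorter than 3 kb and 38.6%, 32.9%, 21.1% and 10.9% without chromosomes 1, 8 and 11, in each case for CTCF in WT and in C59 and then Smc3 in WT and in C59. The share of all genes was not computed for the 500-bp, 2500-bp, start-only or equal-list settings, so those values show only how the members' shares move. No paired analysis was possible because each line and protein had 1 library. Backgrounds by length or chromosome 11, summit positions and Smc3 by place and fold were added after seeing the data. Read depth is unknown, so weak sites missing from a shorter list may lie below its threshold.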
